A study of Homo sapiens with 9 samples.

Results

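The genes described here are 5 ligands of the epidermal growth factor (EGF) family (AREG, EREG, HBEGF, TGFA and BTC), 3 receptors of the ERBB family (EGFR, ERBB2 and ERBB3) and MET, the receptor of hepatocyte growth factor. These 9 genes were taken by name from the 58381 genes of the deposited counts. The rule used no measured value, but the list was drawn up with earlier results of these data known. All libraries came from EGI-1, an established human cholangiocarcinoma (bile duct cancer) cell line that carried a TET-inducible short hairpin RNA. There were 3 libraries with a control hairpin (GFPsh), 3 with the hairpin FOSL1sh3 and 3 with the hairpin FOSL1sh10, the latter both directed against FOSL1, the gene of the AP-1 subunit FRA1. All 9 libraries, controls included, had doxycycline at 2 ug/ml for 4 days and a further 24 h after seeding, so no library shows the line without doxycycline. The labels do not say whether the hairpin lines were pools or clones, and they do not say that the replicates were separate cultures, so the p-values cover only how these libraries vary, which may be technical variation.

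CPM is the count per 1000000 counts of the library total. Levels are given after scaling that total by the TMM factor, a factor that lines up the bulk of the genes across libraries. Library totals ran from 6893026 to 10604251 counts, and 3 counts corresponded to 0.283 to 0.435 CPM of the unscaled total. FOSL1 stood at 182 to 302 CPM with GFPsh, 44.8 to 72.1 CPM with FOSL1sh3 and 57.0 to 70.7 CPM with FOSL1sh10. Its log2 fold change was -1.98 (adjusted p = 1.2e-05) with FOSL1sh3 and -1.94 (adjusted p = 1.03e-05) with FOSL1sh10, from edgeR's quasi-likelihood test with p adjusted over all genes tested. The biliary keratins KRT19 (3112 to 5149 CPM) and KRT7 (219 to 390 CPM) were present in every library, and KRT7 was called higher with FOSL1sh3 (log2 fold change 0.46, adjusted p = 0.0432) and with FOSL1sh10 (0.72, adjusted p = 0.00456). By contrast, the leukocyte gene CD3E, the stromal genes COL3A1 and DCN and the hepatocyte gene CYP3A4 were at 0 in all 9. The summed level of the 6 leukocyte markers was 2.92 to 4.62 CPM with GFPsh and 5.12 to 8.84 CPM with the FOSL1 hairpins, nearly all of it from CD14, and that of the 6 hepatocyte markers was 6.17 to 7.43 CPM against 8.06 to 17.6 CPM, mostly from SERPINA1, which rose with FOSL1sh10 (1.27, adjusted p = 0.00141). The 6 fibroblast and endothelial markers summed to 2.92 to 4.73 CPM with GFPsh and 4.30 to 9.45 CPM with the FOSL1 hairpins. The part of these markers in the results was not tested.

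EGF family ligands are made as membrane-anchored precursors and are cut free by cell surface proteases, after which they bind ERBB receptors on the same or a neighbouring cell. AREG, TGFA, EREG, HBEGF and BTC all bind EGFR, and EREG, HBEGF and BTC can also engage ERBB4. ERBB2 has no known ligand and acts as a dimer partner, whereas ERBB3 binds neuregulins and has little kinase activity of its own. MET is a separate receptor tyrosine kinase that shares much of the downstream RAS and PI3K signalling. In the biliary tract these receptors are known for growth and repair of the duct epithelium, and ERBB2 amplification and MET overexpression are known in subsets of biliary cancers.

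AREG was the most abundant of the ligands in each of the 3 groups, and BTC the least. In CPM per kb of exon length, the GFPsh means ran AREG 406.8, TGFA 28.95, EREG 10.2, HBEGF 8.47, MET 6.29, EGFR 5.27, ERBB3 2.30, ERBB2 1.46 and BTC 0.446. On this scale the ranges over the 3 GFPsh libraries overlapped between EREG and HBEGF and between MET and EGFR. The order within these pairs was thus not resolved per kb. In CPM per kb, AREG made up 89.4% ± 1.06 of the summed level of the 5 ligands with GFPsh, 88.5% ± 2.51 with FOSL1sh3 and 89.9% ± 0.78 with FOSL1sh10 (SD, n = 3). Its share of the summed plain CPM was lower, 74.5% ± 2.05, 73.5% ± 4.64 and 75.4% ± 1.51 in the same order of groups. With FOSL1sh3 the order of EREG and HBEGF per kb was the other way (8.005 and 12.05 CPM per kb), and ERBB2 and ERBB3 lay together at 2.524 and 2.521 CPM per kb. In plain CPM with FOSL1sh3, the mean of EREG (45.8 ± 8.53 CPM) stayed above that of HBEGF (36.4 ± 5.35 CPM), with overlapping ranges. With FOSL1sh10, EREG came to 17.41 CPM per kb, and its range reached that of TGFA at 21.79 CPM per kb. The cited library protocol tags the 3′ end of transcripts, so a count need not grow with exon length. The order in plain CPM put EGFR with GFPsh (66.0 ± 10.6 CPM) level with EREG (58.3 ± 6.77 CPM) and above HBEGF (25.6 ± 4.09 CPM). Also in plain CPM with GFPsh, EGFR (55.7 to 76.9 CPM) was wholly above MET (42.8 to 46.4 CPM), the reverse of their means per kb. EREG (52.1 to 65.5 CPM) was wholly above HBEGF (21.1 to 29.03 CPM).

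**Figure D1:**
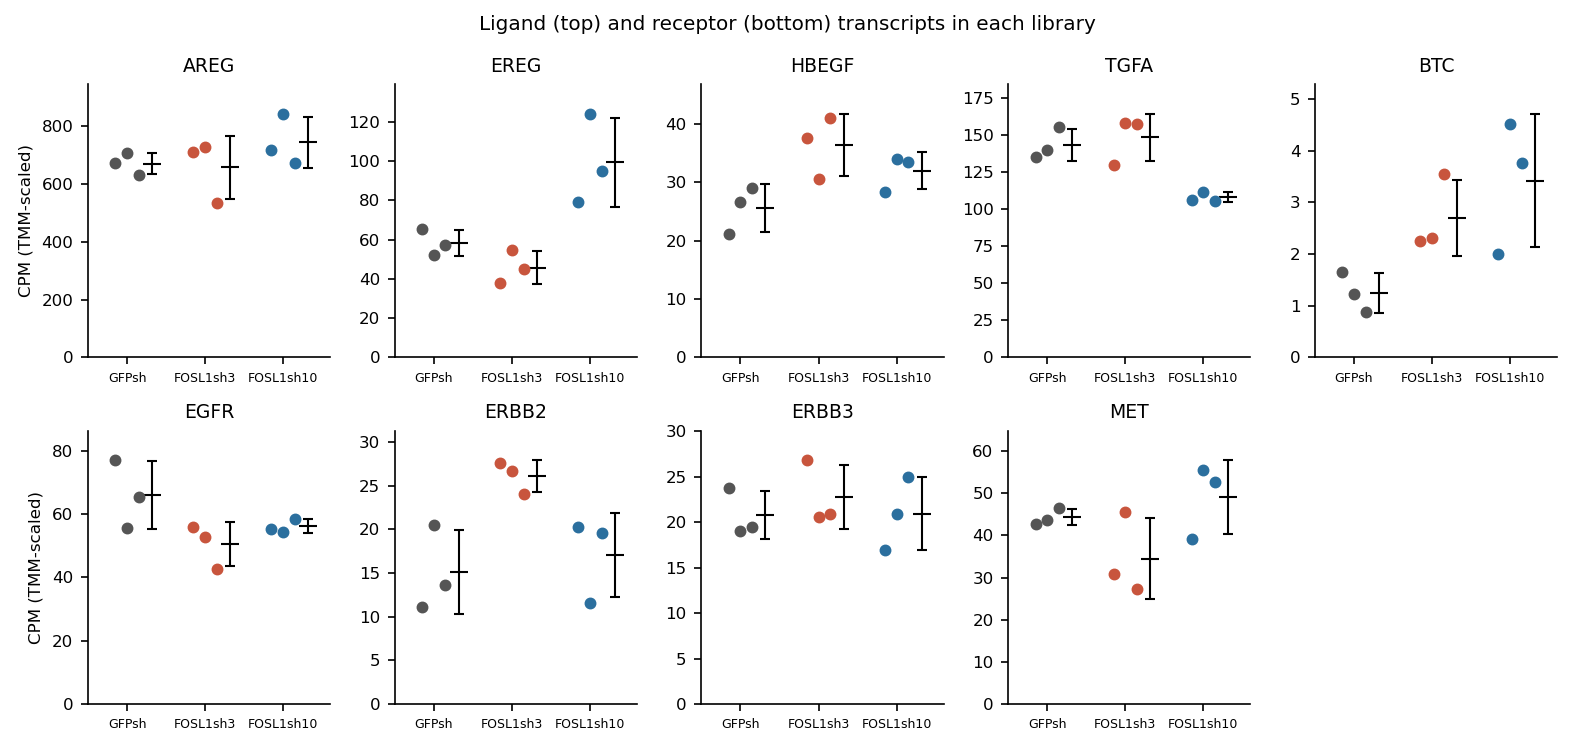
Level of each of the 9 genes in CPM (vertical axis, linear, from 0, own scale for each gene) in the 3 libraries of GFPsh (grey), FOSL1sh3 (red) and FOSL1sh10 (blue). Points are libraries, and the bar and whiskers are the mean and SD. The 3 FOSL1sh10 libraries sit above all others for EREG and below all others for TGFA, and the 3 FOSL1sh3 libraries sit above all others for ERBB2.

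All 9 genes passed the filter on low counts, BTC through the hairpin libraries. For BTC only 2 of the 3 GFPsh libraries were above the filter level of 1.22 CPM of the unscaled total. A gene was called when its p-value, adjusted over all 12814 genes tested by Benjamini and Hochberg's method, was under 0.05. With FOSL1sh3 against GFPsh, 1 of the 9 (ERBB2) was called, 11.1% of them beside 10.9% of all genes tested. That call was higher, as were 5.21% of all genes, and no member was called lower beside 5.65% of all genes (none by DESeq2's Wald test either). With FOSL1sh10 against GFPsh, 2 of the 9 (EREG and BTC) were called higher, 22.2% beside 5.28% of all genes called either way and 3.13% called higher. Since BTC passed the filter through the libraries in which it was high, this count is no support for a rise among the 9. None was called lower, beside 2.15% of all genes, although DESeq2's Wald test called 1 (TGFA), whose unadjusted p was under 0.05. Between the hairpins, 2 of the 9 (EREG and TGFA) were called, 22.2% beside 12.7% of all genes, 1 in each direction beside 5.74% higher and 7% lower. The median log2 fold change of the 9 was 0.05 with FOSL1sh3 and 0.15 with FOSL1sh10, against 0.01 and 0.00 over all genes. Both comparisons with GFPsh use the same 3 control libraries. In these cultures a change in the share of cells that carry a transcript and a change of transcript per cell cannot be told apart.

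**Figure D2:**
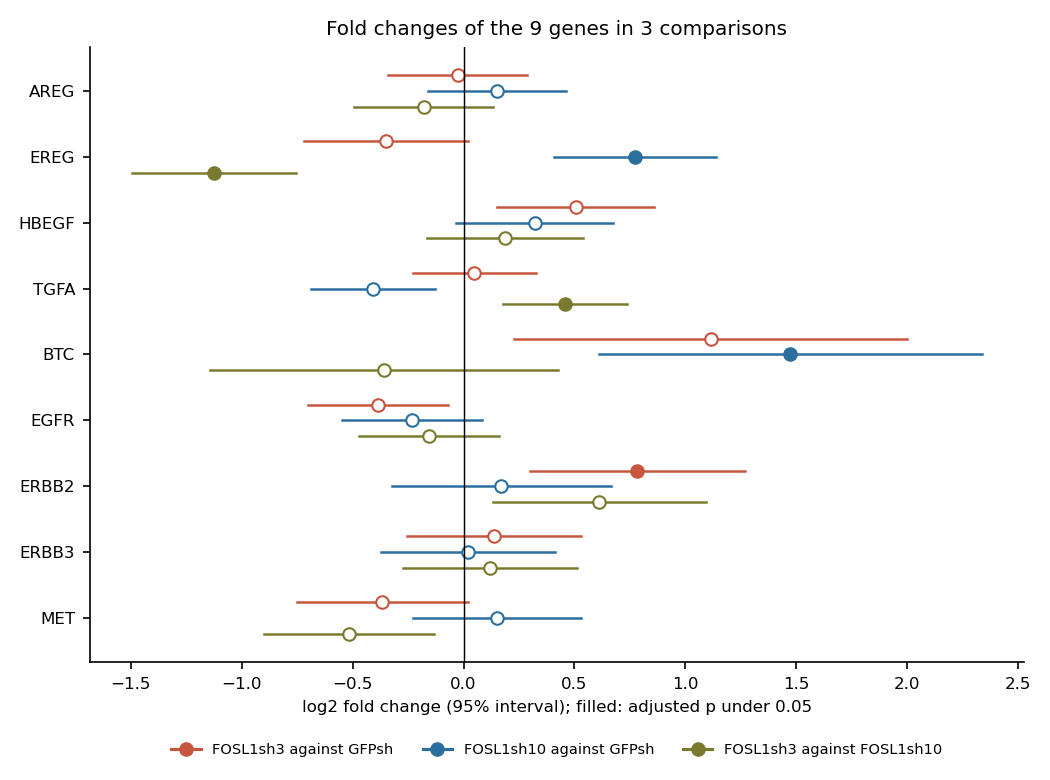
Log2 fold change (horizontal axis) of each of the 9 genes (rows) in FOSL1sh3 against GFPsh (red), FOSL1sh10 against GFPsh (blue) and FOSL1sh3 against FOSL1sh10 (olive). Points are estimates, lines are 95% intervals, and filled points have an adjusted p under 0.05. EREG lies at -0.35 with FOSL1sh3 and 0.77 with FOSL1sh10, the widest separation among the 9 genes.

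EREG encodes epiregulin, a ligand of EGFR and ERBB4 with broad receptor use. It was measured at 65.5, 52.1 and 57.3 CPM with GFPsh, 37.7, 54.7 and 44.9 CPM with FOSL1sh3, and 79.4, 124 and 95.02 CPM with FOSL1sh10. The FOSL1sh10 libraries were above all 6 others, while the FOSL1sh3 range overlapped that of GFPsh at its upper end. EREG rose with FOSL1sh10 (log2 fold change 0.77, SE 0.174, adjusted p = 0.0121, n = 3 against 3 libraries in edgeR's quasi-likelihood test). With FOSL1sh3 the estimate was -0.35 (95% interval -0.72 to 0.02, adjusted p = 0.21). The difference between the hairpins, tested directly, was -1.13 (SE 0.176, adjusted p = 0.000518), and this call held under all 12 alternatives run, with estimates from -1.30 to -0.92. The call with FOSL1sh10 was lost without FOSL1sh10 replicate 2 (0.57, adjusted p = 0.103), without GFPsh replicate 2 (adjusted p = 0.068) and without GFPsh replicate 3 (adjusted p = 0.0505).

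AREG encodes amphiregulin, which binds EGFR, and its gene lies downstream of EREG on the same strand. AREG was measured at 672, 706 and 633 CPM with GFPsh, 710, 730 and 534 CPM with FOSL1sh3, and 719, 844 and 673 CPM with FOSL1sh10. All 3 groups overlapped, with the lowest level in FOSL1sh3 replicate 3 and the highest in FOSL1sh10 replicate 2. No difference was called with FOSL1sh3 (log2 fold change -0.03, 95% interval -0.34 to 0.29, adjusted p = 0.931) or with FOSL1sh10 (0.15, 95% interval -0.16 to 0.46, adjusted p = 0.637).

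EREG (hg38 chr4:74365143-74388751, plus strand) and AREG (chr4:74445134-74455009, plus strand) are 56382 bases apart. BTC (chr4:74744759-74794686, minus strand) follows 289749 bases after AREG, and EPGN, another EGF family ligand, precedes EREG by 49835 bases and had 0 to 2 counts in each library. The stretches upstream of the EREG and AREG start sites are shown because these neighbours were measured at such different levels and EREG alone was called, 5′ to 3′ from RefSeq on GRCh38.p14, with TATAAA (gene strand) and TGACGTCA (the cAMP response element, both strands) in capitals.
EREG: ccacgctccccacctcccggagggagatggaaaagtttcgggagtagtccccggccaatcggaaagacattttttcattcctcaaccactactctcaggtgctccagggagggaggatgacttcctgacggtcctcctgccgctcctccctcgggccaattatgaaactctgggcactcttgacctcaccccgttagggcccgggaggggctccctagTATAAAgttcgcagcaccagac
AREG: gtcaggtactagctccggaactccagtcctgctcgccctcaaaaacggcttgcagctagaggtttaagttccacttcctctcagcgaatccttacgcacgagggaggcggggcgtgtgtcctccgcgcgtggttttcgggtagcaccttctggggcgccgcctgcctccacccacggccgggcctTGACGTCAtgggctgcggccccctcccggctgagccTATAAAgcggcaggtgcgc
The EREG stretch is chr4:74364895-74365134 and the AREG stretch chr4:74444886-74445125, both on the plus strand. TATAAA lay 32 bases before the EREG start and 29 bases before the AREG start, and TGACGTCA lay 65 bases before the AREG start. Among all 35116 RefSeq windows of 300 bases (250 before to 50 after a start), 7.33% held TATAAA and 1.85% held TGACGTCA. TGANTCA, with any base at N, is a looser pattern that includes TGAGTCA and TGACTCA, the core letters bound by AP-1 factors such as FRA1. This looser pattern was in 7.71% of the windows (both strands) and in neither the EREG nor the AREG window. A match in these letters is a description of the window and not a measured binding site.

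Since both ligands were counted in the same libraries, their ratio needs no scaling between libraries. The EREG count was 9.74%, 7.38% and 9.06% of the AREG count with GFPsh, 5.31%, 7.50% and 8.42% with FOSL1sh3, and 11.05%, 14.7% and 14.1% with FOSL1sh10. The 3 FOSL1sh10 libraries were again above the 6 others, and the GFPsh and FOSL1sh3 libraries overlapped.

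TGFA (chr2:70447280-70554193, minus strand) encodes transforming growth factor alpha, an EGFR ligand. It was measured at 135, 140 and 156 CPM with GFPsh, 130, 158 and 158 CPM with FOSL1sh3, and 107, 112 and 106 CPM with FOSL1sh10. The FOSL1sh10 libraries lay close together and below all 6 others. Against GFPsh the log2 fold change with FOSL1sh10 was -0.41 (95% interval -0.69 to -0.13) and was not called (adjusted p = 0.0833), though 2 alternatives called it, DESeq2's Wald test (adjusted p = 0.0442) and a fit of only the 2 groups (adjusted p = 0.0357). With FOSL1sh3 it was 0.05 (95% interval -0.23 to 0.33, adjusted p = 0.852). TGFA was higher with FOSL1sh3 than with FOSL1sh10 (log2 difference 0.46, SE 0.133, adjusted p = 0.0301). That call was lost with scaling by library totals alone (0.29, adjusted p = 0.166), where the median of all genes shifted to -0.17, with no low-count filter (adjusted p = 0.0572), and without any 1 of FOSL1sh10 replicates 1, 2 or 3 or FOSL1sh3 replicates 2 or 3 (adjusted p from 0.0653 to 0.0959). Relative to AREG, TGFA was 21.5% ± 2.69 of the count with GFPsh, 23.2% ± 5.75 with FOSL1sh3 and 14.6% ± 1.24 with FOSL1sh10 (SD, n = 3).

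**Figure D3:**
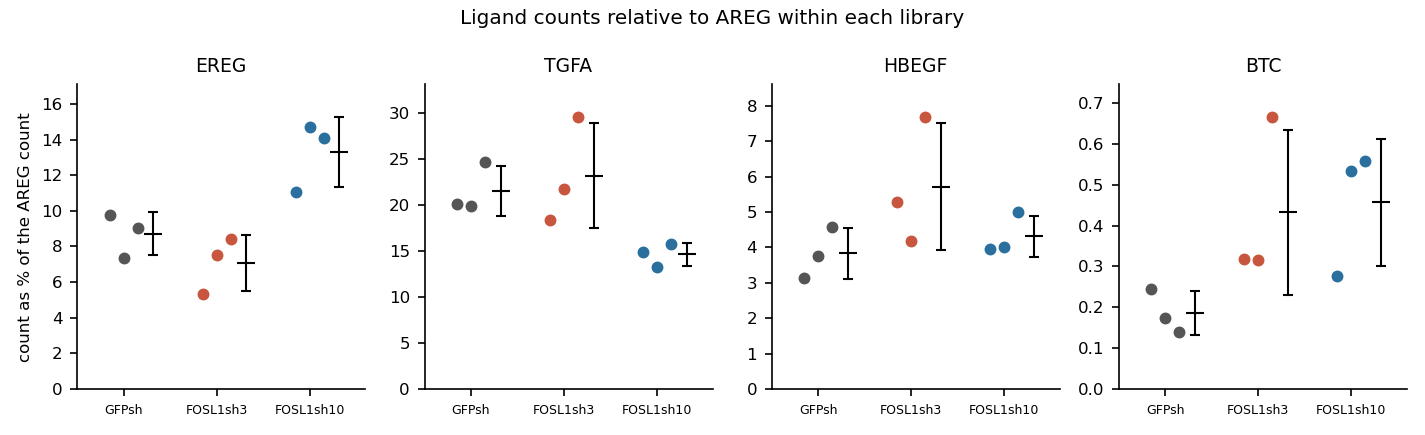
Count of EREG, TGFA, HBEGF and BTC as a percentage of the AREG count in the same library (vertical axis, linear, from 0, own scale for each gene), for GFPsh (grey), FOSL1sh3 (red) and FOSL1sh10 (blue). Points are libraries, and the bar and whiskers are the mean and SD. EREG is at 11.05% to 14.7% in the FOSL1sh10 libraries and below 10% in the others, and TGFA is lowest in the FOSL1sh10 libraries.

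BTC encodes betacellulin, a ligand of EGFR and ERBB4, and was measured near the limit of the data, with 8 to 40 counts per library. It stood at 1.65, 1.23 and 0.880 CPM with GFPsh, 2.25, 2.30 and 3.55 CPM with FOSL1sh3, and 1.99, 4.51 and 3.76 CPM with FOSL1sh10. Every library with a FOSL1 hairpin was above every GFPsh library. BTC was called higher with FOSL1sh10 (log2 fold change 1.47, SE 0.411, 95% interval 0.61 to 2.34, adjusted p = 0.0413), with the limit that it entered the test through the hairpin libraries. With no low-count filter, where every gene with a count enters, the estimate was 1.47 (adjusted p = 0.0165). With FOSL1sh3 the estimate was 1.11 (95% interval 0.23 to 2.00) and was not called (adjusted p = 0.0977). The hairpins were not called apart (difference -0.36, 95% interval -1.15 to 0.43, adjusted p = 0.567). The FOSL1sh10 call was lost on leaving out GFPsh replicate 1, 2 or 3 (adjusted p = 0.0656, 0.113 and 0.173) or FOSL1sh10 replicate 2 or 3 (adjusted p = 0.201 and 0.141). It was also lost with a replicate block in the model (1.44, adjusted p = 0.0575).

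HBEGF (chr5:140332843-140346631, minus strand) encodes heparin-binding EGF-like growth factor. It stood at 21.1, 26.6 and 29.03 CPM with GFPsh, 37.6, 30.5 and 41.0 CPM with FOSL1sh3, and 28.3, 34.0 and 33.5 CPM with FOSL1sh10. The FOSL1sh3 libraries were above the 3 GFPsh libraries, and the FOSL1sh10 libraries overlapped both groups. The log2 fold change was 0.51 with FOSL1sh3 (95% interval 0.15 to 0.86, adjusted p = 0.0607) and 0.32 with FOSL1sh10 (95% interval -0.03 to 0.67, adjusted p = 0.317), and neither was called. Without FOSL1sh3 replicate 2 the FOSL1sh3 estimate was 0.61 and was called (adjusted p = 0.0294). Groups that do not overlap were common: with FOSL1sh3, 3 of the 9 genes (HBEGF, BTC and ERBB2) lay wholly above GFPsh and none wholly below, beside 14.7% and 14.5% of all genes, and with FOSL1sh10, EREG and BTC lay wholly above and TGFA wholly below, beside 14.3% and 13% of all genes. Since BTC passed the filter through the hairpin libraries, the counts above GFPsh are no support for a rise among the 9. Between the hairpins, TGFA and ERBB2 lay wholly higher with FOSL1sh3 and EREG wholly lower, beside 14.8% and 15.9% of all genes.

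Among the receptors, ERBB2 was called with FOSL1sh3 and no receptor was called with FOSL1sh10, where none had an unadjusted p under 0.05 and DESeq2 called none. ERBB2 (chr17:39687914-39730426, plus strand) encodes the ligandless partner HER2, which pairs with the other ERBB receptors. It was measured at 11.1, 20.4 and 13.6 CPM with GFPsh, 27.5, 26.6 and 24.0 CPM with FOSL1sh3, and 20.2, 11.5 and 19.5 CPM with FOSL1sh10, from 81 to 269 counts. The FOSL1sh3 libraries were close together and above all 6 others, whereas GFPsh and FOSL1sh10 overlapped and each held 1 library that stood away from the other two. ERBB2 rose with FOSL1sh3 (log2 fold change 0.78, SE 0.231, 95% interval 0.30 to 1.27, adjusted p = 0.0362). With FOSL1sh10 it was 0.17 (95% interval -0.32 to 0.66, adjusted p = 0.754), and the difference between the hairpins, 0.61, was not called (adjusted p = 0.0881). With no low-count filter, edgeR did call that difference (adjusted p = 0.0392). The FOSL1sh3 call was lost without FOSL1sh3 replicate 1, 2 or 3 (adjusted p = 0.0822, 0.0559 and 0.0562) and without GFPsh replicate 1 or 3 (adjusted p = 0.153 and 0.12). Without GFPsh replicate 2, the control with the most ERBB2, the estimate was 1.07 (adjusted p = 0.0152). As a share of the summed CPM of the 4 receptors, ERBB2 made up 10.4% ± 3.86 with GFPsh, 19.6% ± 1.32 with FOSL1sh3 and 12.0% ± 3.66 with FOSL1sh10 (SD, n = 3).

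ERBB2 lies in a dense stretch of chromosome 17, and 5.53% of its 10321 exon bases are shared with MIEN1 and 1.88% with PGAP3, both on the opposite strand. Counting did not use strand and did not assign reads that touch more than 1 gene, so reads in the shared bases count for neither gene. MIEN1 (chr17:39728496-39730787) spans the 3′ end of ERBB2, the part of a transcript that the cited library protocol tags. The share of ERBB2 reads left out may therefore exceed these percentages and was not measured. The level of ERBB2, and its rank and share among the receptors, carry this limit. PGAP3, MIEN1 and GRB7, of which GRB7 belongs to a list of receptor adaptors and the other two were chosen after their values were seen, were looked at beside ERBB2. GRB7 (chr17:39737927-39747291, plus strand) encodes an adaptor that binds ERBB2 and is often amplified with it. GRB7 was measured at 15.8, 19.5 and 18.9 CPM with GFPsh, 33.0, 25.8 and 39.5 CPM with FOSL1sh3, and 16.6, 16.7 and 19.7 CPM with FOSL1sh10. GRB7 rose with FOSL1sh3 (log2 fold change 0.85, SE 0.182, adjusted p = 0.00685), was not called with FOSL1sh10 (-0.03, adjusted p = 0.951) and differed between the hairpins (0.89, adjusted p = 0.00405). PGAP3 stood at 8.63 ± 0.192, 12.1 ± 2.48 and 7.52 ± 1.04 CPM and MIEN1 at 80.9 ± 10.05, 102.2 ± 21.8 and 70.6 ± 6.19 CPM with GFPsh, FOSL1sh3 and FOSL1sh10 (SD, n = 3). Neither was called against GFPsh (FOSL1sh3 log2 fold changes 0.49 and 0.34, adjusted p = 0.145 and 0.188), and both were higher with FOSL1sh3 than with FOSL1sh10 (0.70 and 0.54, adjusted p = 0.0407 and 0.0372).

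**Figure D4:**
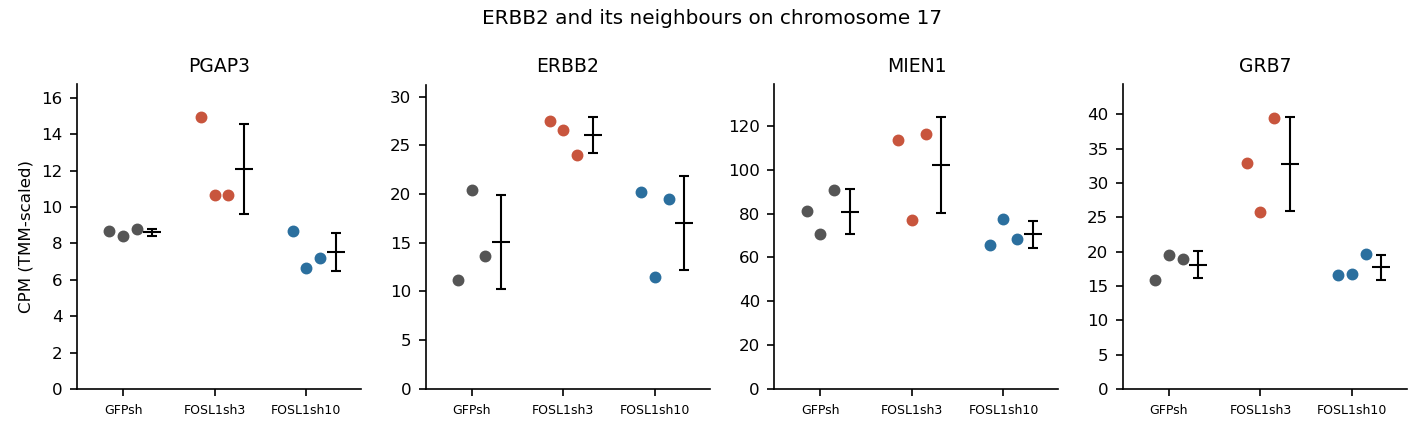
Level in CPM (vertical axis, linear, from 0, own scale for each gene) of ERBB2 and its neighbours PGAP3, MIEN1 and GRB7 in the libraries of GFPsh (grey), FOSL1sh3 (red) and FOSL1sh10 (blue). Points are libraries, and the bar and whiskers are the mean and SD. For PGAP3, ERBB2 and GRB7 the 3 FOSL1sh3 libraries sit above the 6 others, and for MIEN1 the groups overlap.

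EGFR (chr7:55019021-55211628, plus strand) encodes the receptor of all 5 ligands. It stood at 76.9, 55.7 and 65.3 CPM with GFPsh, 55.8, 52.8 and 42.5 CPM with FOSL1sh3, and 55.3, 54.4 and 58.5 CPM with FOSL1sh10. The groups overlapped through GFPsh replicate 2, and neither the estimate with FOSL1sh3 (log2 fold change -0.39, 95% interval -0.70 to -0.07, adjusted p = 0.106) nor that with FOSL1sh10 (-0.23, 95% interval -0.55 to 0.08, adjusted p = 0.436) was called. ERBB3 (chr12:56076799-56103505, plus strand), the neuregulin receptor, stood at 20.8 ± 2.63 CPM with GFPsh, 22.8 ± 3.51 CPM with FOSL1sh3 and 20.9 ± 4.04 CPM with FOSL1sh10 (SD, n = 3), and the 3 groups overlapped. Its log2 fold change was 0.14 with FOSL1sh3 (95% interval -0.25 to 0.53, adjusted p = 0.679) and 0.02 with FOSL1sh10 (95% interval -0.37 to 0.41, adjusted p = 0.974).

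Promoter windows were found for 8 of the 9 genes, and TGANTCA occurred in the windows of EGFR and ERBB2, which are shown for that reason with TGANTCA and TATAAA in capitals, 5′ to 3′ on the plus strand. EGFR has 2 windows in the table, and the matches were in the one whose start lies inside the gene (chr7, base 55109839). The first and second EGFR lines are chr7:55109596-55109624 and chr7:55109692-55109720, both intronic, and the ERBB2 line is chr17:39687861-39687889, which overlaps an exon of PGAP3.
EGFR first: gctttcccatgTGAGTCAttgctagtcag
EGFR second: gTATAAActttTGACTCAcaggacaaatt
ERBB2: gggagcggaagTGATTCAgagcgccccca
The matches lay 232 and 136 bases before that EGFR start and 222 bases before the ERBB2 start. Those of EGFR read TGAGTCA and TGACTCA, whereas that of ERBB2 reads TGATTCA, which only the looser pattern admits. No TGANTCA was found in the windows of AREG, EREG, BTC, HBEGF, MET or TGFA.

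MET (chr7:116672390-116798386, plus strand) was measured at 42.8, 43.7 and 46.4 CPM with GFPsh, 30.8, 45.5 and 27.2 CPM with FOSL1sh3, and 39.1, 55.5 and 52.6 CPM with FOSL1sh10. FOSL1sh3 replicates 1 and 3 were below every other library, while replicate 2 lay among the controls. MET was not called with FOSL1sh3 (log2 fold change -0.37, 95% interval -0.75 to 0.02, adjusted p = 0.21), with FOSL1sh10 (0.15, 95% interval -0.23 to 0.53, adjusted p = 0.717) or between the hairpins (-0.52, 95% interval -0.90 to -0.13, adjusted p = 0.0715). Without FOSL1sh3 replicate 2, MET was called lower with FOSL1sh3 than with GFPsh (-0.61, adjusted p = 0.0294) and than with FOSL1sh10 (-0.76, adjusted p = 0.00805). The difference between the hairpins also passed without FOSL1sh10 replicate 1 (adjusted p = 0.0441), without the low-count filter (adjusted p = 0.0408) and with scaling by library totals (-0.69, adjusted p = 0.0187).

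Other genes of the pathways were taken from 5 lists with 63 genes, of which 50 passed the low-count filter. With FOSL1sh3, 3 rose and 5 fell, 16% of those tested beside 10.9% of all genes, and with FOSL1sh10 only SPINT1 was called, 2% beside 5.28%. The median log2 fold change of the 50 genes was -0.01 with FOSL1sh3 and 0.01 with FOSL1sh10. Of 10 other ligands and receptors, 2 were tested. HGF, the ligand of MET, and the neuregulin NRG3 had 0 counts in every library, ERBB4 had 1 count in each of 2 libraries, and EGF had 0 to 8 counts. NRG1, a ligand of ERBB3 and ERBB4, was measured at 7.71, 5.73 and 6.38 CPM with GFPsh, 2.66, 2.88 and 1.40 CPM with FOSL1sh3, and 5.69, 6.88 and 7.22 CPM with FOSL1sh10. The FOSL1sh3 libraries were below all 6 others. NRG1 fell with FOSL1sh3 (log2 fold change -1.50, SE 0.30, adjusted p = 0.0044), was not called with FOSL1sh10 (0.01, adjusted p = 0.99) and differed between the hairpins (-1.51, adjusted p = 0.00314).

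Ligand release was represented by 7 genes for shedding proteases and their partners, all tested, of which 1 was called with FOSL1sh3 and none with FOSL1sh10 (1 at an unadjusted p under 0.05, none by DESeq2), beside 10.9% and 5.28% of all genes. FRMD8, which stabilises the iRhom and ADAM17 shedding complex, stood at 46.8, 47.3 and 48.4 CPM with GFPsh, 62.0, 60.0 and 85.9 CPM with FOSL1sh3, and 47.5, 42.8 and 45.6 CPM with FOSL1sh10. FRMD8 rose with FOSL1sh3 (log2 fold change 0.55, SE 0.15, adjusted p = 0.0262) and was not called with FOSL1sh10 (-0.07, adjusted p = 0.862). Its call was lost without FOSL1sh3 replicate 3, the library highest in FRMD8 (0.36, adjusted p = 0.12), and without GFPsh replicate 1, 2 or 3 (adjusted p from 0.0678 to 0.0915), with library totals alone (adjusted p = 0.0506) and in a fit of only the 2 groups (adjusted p = 0.0525). Of 6 genes for HGF activation, 4 were tested. SPINT1, an inhibitor of the proteases that activate HGF, stood at 97.4, 91.0 and 75.5 CPM with GFPsh, 152, 133 and 158 CPM with FOSL1sh3, and 134, 117 and 125 CPM with FOSL1sh10. Every FOSL1 hairpin library was above every GFPsh library. SPINT1 rose with FOSL1sh3 (0.75, SE 0.14, adjusted p = 0.00303) and with FOSL1sh10 (0.51, SE 0.14, adjusted p = 0.0371), although the FOSL1sh10 call was lost on leaving out any 1 library of the pair, FOSL1sh10 or GFPsh replicates 1, 2 or 3 (adjusted p from 0.0657 to 0.17).

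Among 20 adaptors and effectors, 17 were tested, and with FOSL1sh3 GRB7 rose while EPS8 and PTPN11 fell, 3 of 17 beside 10.9% of all genes. With FOSL1sh10 none of the 17 was called beside 5.28% of all genes, none had an unadjusted p under 0.05 and DESeq2 called none. EPS8, an EGFR substrate that acts on actin, stood at 70.7, 67.2 and 72.4 CPM with GFPsh, 40.3, 51.8 and 45.6 CPM with FOSL1sh3, and 49.2, 64.1 and 58.9 CPM with FOSL1sh10. EPS8 fell with FOSL1sh3 (log2 fold change -0.61, SE 0.144, adjusted p = 0.0119), a call lost without FOSL1sh3 replicate 1 (adjusted p = 0.0511) or GFPsh replicate 1 (adjusted p = 0.0533), and its estimate with FOSL1sh10 was -0.29 (adjusted p = 0.283). PTPN11, which encodes the phosphatase SHP2, stood at 38.1, 35.4 and 43.3 CPM with GFPsh, 26.7, 29.4 and 13.7 CPM with FOSL1sh3, and 42.8, 61.7 and 44.5 CPM with FOSL1sh10. PTPN11 fell with FOSL1sh3 (-0.74, SE 0.222, adjusted p = 0.0382), was not called with FOSL1sh10 (0.35, adjusted p = 0.405) and was lower with FOSL1sh3 than with FOSL1sh10 (-1.10, adjusted p = 0.00358). Its fall against GFPsh lost the call without FOSL1sh3 replicate 3 (-0.48, adjusted p = 0.125) and without GFPsh replicate 1, 2 or 3 (adjusted p from 0.0586 to 0.123), and in a fit of only the 2 groups (adjusted p = 0.061).

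All 20 genes for restraint and trafficking of the receptors were tested, 2 fell with FOSL1sh3 and none was called with FOSL1sh10 (2 at an unadjusted p under 0.05, 1 by DESeq2), beside 10.9% and 5.28% of all genes. The share with FOSL1sh3 was thus near that of all genes. EPS15, an endocytic adaptor, stood at 8.95, 6.74 and 6.38 CPM with GFPsh, 3.69, 3.89 and 3.93 CPM with FOSL1sh3, and 4.13, 5.08 and 5.79 CPM with FOSL1sh10. EPS15 fell with FOSL1sh3 (log2 fold change -0.93, SE 0.26, adjusted p = 0.0279), and its FOSL1sh10 estimate of -0.54 was not called (adjusted p = 0.246). SH3KBP1, which links CBL to endocytosis of receptors, stood at 69.1, 63.4 and 72.0 CPM with GFPsh, 47.4, 51.4 and 48.1 CPM with FOSL1sh3, and 60.2, 76.5 and 70.8 CPM with FOSL1sh10. SH3KBP1 fell with FOSL1sh3 (-0.48, SE 0.136, adjusted p = 0.0312) and was lower with FOSL1sh3 than with FOSL1sh10 (-0.50, adjusted p = 0.0224). The EPS15 call was lost without FOSL1sh3 replicate 1 or 3 or GFPsh replicate 1 or 2 (adjusted p from 0.0515 to 0.141), and the SH3KBP1 call with FOSL1sh3 was lost without FOSL1sh3 replicate 1 or 3 or GFPsh replicate 1, 2 or 3 (adjusted p from 0.051 to 0.116), in a fit of only the 2 groups (adjusted p = 0.061) and when genes with low counts were kept (adjusted p = 0.0505). Between the hairpins 9 of the 50 genes were called, 18% beside 12.7% of all genes, and 4 of them, named after their values were seen, were not called against GFPsh: CD9 was higher with FOSL1sh3 (0.60, adjusted p = 0.0192), while LRIG3 (-0.95, adjusted p = 0.0306) and the signalling inhibitors SPRY1 (-0.92, adjusted p = 0.0148) and SPRY2 (-0.89, adjusted p = 0.0279) were lower. Against GFPsh, SPRY1 and CD9 came closest to a call with FOSL1sh10 (0.79 and -0.40, adjusted p = 0.0514 and 0.166). LRIG3 and SPRY2 came closest with FOSL1sh3 (-0.70 and -0.62, adjusted p = 0.114 and 0.128).

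**Figure D5:**
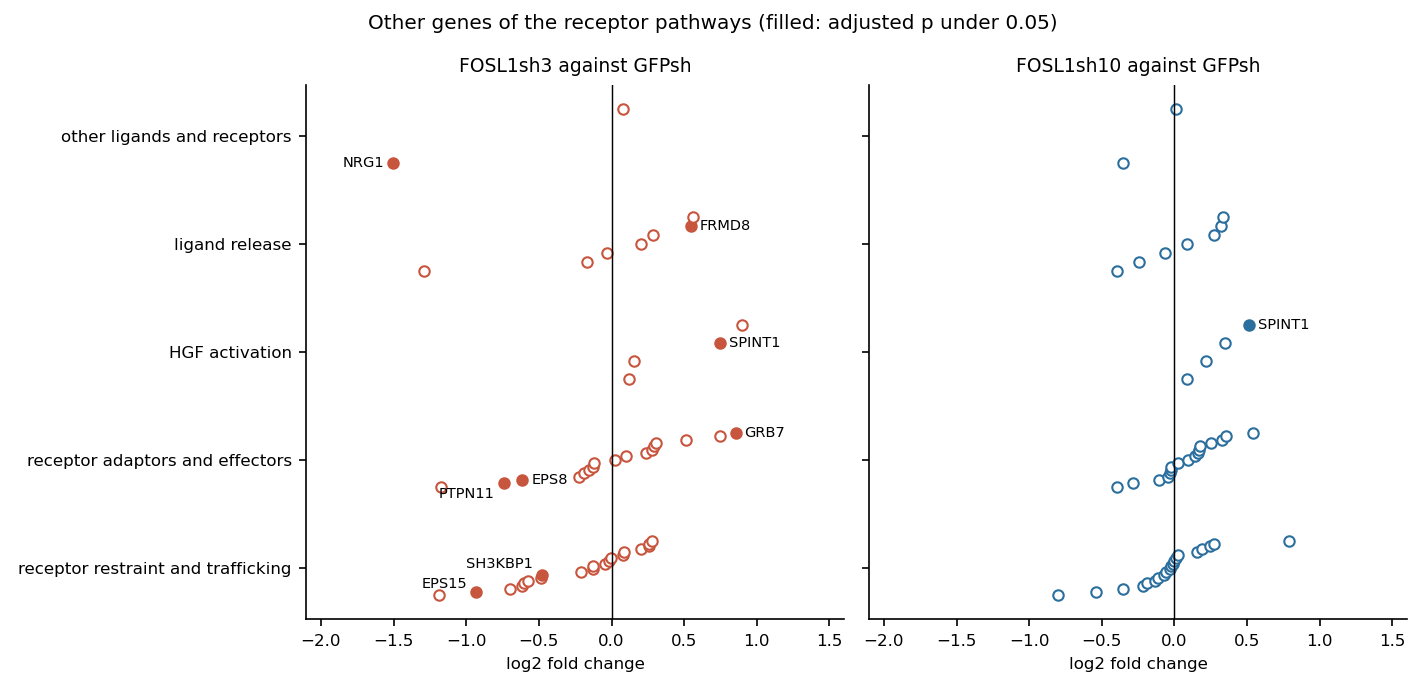
Log2 fold change (horizontal axis) against GFPsh of the 50 tested pathway genes with FOSL1sh3 (left) and FOSL1sh10 (right), in the 5 lists (rows). Points are genes, spread vertically within a row for legibility, and filled, named points have an adjusted p under 0.05. With FOSL1sh3, 8 genes are filled, from NRG1 at -1.50 to GRB7 at 0.85, and with FOSL1sh10 only SPINT1 at 0.51.

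For the 4 called members, the genes with the most similar log2 CPM pattern over the 9 libraries were listed by Pearson's r, as a description, since the libraries share their groups and the genes were ranked among 9966 or 9967. EREG was most like POLG2 (0.97), CELF2 (0.969) and RNF6 (0.962). Among the genes most like TGFA were MANSC1 (0.979) and INHBB (0.969). BTC was most like TRIM15 (0.958), USP36 (0.934) and MFSD3 (0.929). ERBB2 was most like JARID2 (0.946), ACADVL (0.936) and RPL32P3 (0.971), of which the last is a pseudogene whose reads may not be separable from its parent gene. RNF6, for one, stood at 23.6 to 31.1 CPM with GFPsh, 16.2 to 22.7 CPM with FOSL1sh3 and 31.9 to 47.5 CPM with FOSL1sh10.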

How the data were processed

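RNA-seq counts of 9 EGI-1 libraries were analysed. The deposited files hold raw read counts per gene, which the authors made with featureCounts 1.6.0 over GENCODE 28 exons, without strand, multi-mapping or overlap options, per the file headers. Reads were aligned with STAR 2.5.3a to hg38, and FastQC 0.11.5, edgeR and limma are named too, per the submitters' processing notes. The library protocol is a low-input MARS-seq type, per the labels' protocols, and no source used here says whether molecular identifiers were collapsed, so floors cover counting error only. Gene symbols came from a reference table (57754 of 58381 identifiers matched).

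From these counts, edgeR 4.0.16 (R 4.3.3) fitted all 9 libraries in one quasi-likelihood model with group as the only term, TMM factors and filterByExpr (minimum count 10, minimum total 15), leaving 12814 genes, with 95% intervals and Benjamini-Hochberg adjustment over them. Totals of 6893026 to 10604251 counts set the precision, and the common biological coefficient of variation was 16.4%. Counts were simulated at these depths with the common coefficient of variation for every gene, whereas real genes differ in their spread. For FOSL1sh3 (12632 genes) the fit recovered 72.7% of genes changed by 1 on the log2 scale and 96.9% of those changed by 2. For FOSL1sh10 (12655 genes) it recovered 73% and 94.9%. Unchanged genes called numbered 9 and 5. Recovery pools genes of all levels and may differ in the data. No pair of libraries was identical, and replicates differed by more than sampling noise. Alternatives were size factors, library totals, no low-count filter, DESeq2 1.42.0, a replicate block, fits of only 2 groups and leaving out each library.

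The 9 genes and all lists were chosen with earlier results of these data known. Text names all 9, FOSL1, up to 4 pathway genes per list called against GFPsh by smallest p, and the 3 genes most correlated with each called member (mean of at least 30 counts). Genes outside that rule are said to be chosen after their values were seen. Markers are also named. Some items that these rules name are not reported here.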

Additional observations from a re-analysis of the deposited data

Results flagged for a closer look

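Between the hairpins, 7 of the genes named by rule differed in a direct test of FOSL1sh3 against FOSL1sh10, where 12.7% of all genes tested were called. In that test the GFPsh libraries enter only the scaling, the filter and the estimate of the spread. On the log2 scale the differences were -1.13 for EREG (adjusted p = 0.000518), 0.46 for TGFA (adjusted p = 0.0301), -1.51 for NRG1 (adjusted p = 0.00314), 0.61 for FRMD8 (adjusted p = 0.0125), -1.10 for PTPN11 (adjusted p = 0.00358), 0.89 for GRB7 (adjusted p = 0.00405) and -0.50 for SH3KBP1 (adjusted p = 0.0224), all from edgeR. The pathway genes among the 7 were named because they were called against GFPsh with the same FOSL1sh3 libraries. The count of 7 is therefore no support for a difference among the pathway genes. CD9, LRIG3, SPRY1, SPRY2, PGAP3 and MIEN1, given above, were also called between the hairpins. So were the markers KRT19 (0.50, adjusted p = 0.0243) and SERPINA1 (-0.71, adjusted p = 0.0323). FOSL1 itself differed between the hairpins by -0.05 (adjusted p = 0.9). FRMD8 lost the call between the hairpins with library totals alone (0.45, adjusted p = 0.0529), without FOSL1sh10 replicate 2 (adjusted p = 0.0645) and without FOSL1sh3 replicate 3 (0.43, adjusted p = 0.0555). SH3KBP1 lost it without FOSL1sh10 replicate 2 or 3 or FOSL1sh3 replicate 1 (adjusted p = 0.143, 0.0861 and 0.0649). The difference between hairpins to the same target was measured in 1 cell line, and its source was not tested.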

How the results depend on the processing

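For the 9 genes, 281 of 324 values recomputed under alternatives kept their direction and side of the threshold, 21 lost a call, 10 gained one, 12 uncalled values changed sign and none reversed a call. Most of the values that were kept belonged to results not called in the main fit. On leaving out each of 6 libraries, ERBB2 with FOSL1sh3 lost its call 5 times. With FOSL1sh10, BTC lost its call 5 times and EREG 3 times. Between the hairpins, TGFA lost its call 5 times and EREG 0 times. The 9 genes gave 1 call with FOSL1sh3 (0 to 2 on leaving out 1 library), 2 with FOSL1sh10 (0 to 2) and 2 between the hairpins (1 to 2). Over all genes, the calls numbered 1392 with FOSL1sh3 (599 to 1803 on leaving out 1 library), 676 with FOSL1sh10 (347 to 422, and 1124 in a fit of only the 2 groups) and 1633 between the hairpins (712 to 1920). Leaving out a library also means fewer samples; beyond that the cause was not tested. Library totals alone moved the share of calls that were higher from 48% to 34% with FOSL1sh3, from 59.3% to 77.5% with FOSL1sh10 and from 45.1% to 17.6% between the hairpins. Correlations of deviations gave no clear sign that the replicate numbers pair the libraries. They ran from -0.152 to 0.289 for the same number and from -0.245 to 0.21 for different numbers. Not every library correlated best with its own number. With 3 libraries per group these values cannot exclude pairing. With a replicate block the calls numbered 1456, 695 and 1673, and 1 of the 9 genes was called with FOSL1sh10 (EREG, while BTC had adjusted p = 0.0575) and 3 between the hairpins (MET was added, adjusted p = 0.0493). BTC at 8 to 40 counts per library is the member most limited by depth.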
